A study of Mus musculus with 4 samples.

Results

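Tight junctions are belts of strand-forming proteins that seal the space between neighbouring epithelial cells near their apical surface. The tetraspan claudins form the strands and set which ions and solutes pass, occludin and tricellulin (Marveld2) belong to a second tetraspan family that joins the strands, tricellulin mainly where several cells meet, and the zonula occludens scaffolds (Tjp1 and Tjp3 among them) tie the strands to actin from the cytoplasmic side. In glandular epithelia such as the endometrium claudins such as claudin-3 and claudin-4 are typical strand proteins. The genes described here are 10 of the 22594 genes that the deposited transcript table gave after summing: Cldn1, Cldn3, Cldn4, Cldn6, Cldn7, Cldn12, Ocln, Marveld2, Tjp1 and Tjp3. They were chosen by name with their TPM values in both lines, and so the difference between the lines, already known. Their levels and differences are therefore given as a description, without a test, and nothing is read from how many of them lie on one side.

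RNA of 2 mouse endometrial cancer cell lines was sequenced in 4 libraries, 2 of the MSH2KO21B line and 2 of the MECPK line, called replicates 1 and 2. The labels name both as lines from uterine cancer and give no genotype, strain, age, passage or treatment, nor how the lines were made or are related, so the names stand only as labels and each group is 1 line. Nothing says that replicates were separate cultures, so the errors and p-values below cover the spread among 4 libraries, which may be technical. Levels are in TPM, a relative abundance scaled by transcript length, which can be compared between genes but holds no read depth.

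As a check of the labelled cell type, the 6 epithelial markers (Epcam, Cdh1, Krt8, Krt18, Krt19 and Krt7) were all at 1 TPM or more in both libraries of both lines, with summed levels of 345 and 333 TPM in MSH2KO21B and 5290 and 5233 TPM in MECPK. Most of the MECPK sum came from the simple keratins, while Cdh1, which encodes E-cadherin, was the higher in MSH2KO21B, at 167 and 165 TPM against 100.3 and 99.5 TPM in MECPK. The 5 markers of stratified or basal epithelium (Krt5, Krt14, Krt17, Krt6a and Trp63) were far higher in MSH2KO21B, at 12900 and 12610 TPM in MSH2KO21B and 4.31 and 4.197 TPM in MECPK. Of 9 Mullerian and endometrial markers 4 reached 1 TPM in both MSH2KO21B libraries and 6 in both MECPK libraries, while Pgr, Hoxa10 and Hoxa11 were listed at 0 in all 4 and Foxa2 at 0 in MSH2KO21B. Stromal markers summed to 2.17 and 2.14 TPM in MSH2KO21B and 0.77 and 1.37 TPM in MECPK, immune markers to 2.52 and 2.53 TPM in MSH2KO21B and 3.72 and 2.87 TPM in MECPK, and endothelial markers to 2.78 and 1.83 TPM in MSH2KO21B and 0.07 and 0.03 TPM in MECPK. Among these markers Ptprc, Cd3e, Lum and Kdr were at or below 0.06 TPM everywhere, but 1 gene of each class reached 1 TPM in both MSH2KO21B libraries. Cd68 had 2.47 and 2.525 TPM in MSH2KO21B and 3.65 and 2.82 TPM in MECPK, Pecam1 1.27 and 1.19 TPM in MSH2KO21B and 0.03 and 0.01 TPM in MECPK, and Pdgfra 1.15 and 1.39 TPM in MSH2KO21B and 0.26 and 0.77 TPM in MECPK. Cdh5 reached 1.48 and 0.61 TPM in MSH2KO21B and 0.03 and 0.02 TPM in MECPK.

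The start regions of the 4 claudin genes with the highest levels in MECPK are shown first. These genes had the widest differences between the lines, which were known when they were picked. For Cldn7 the window that holds the short motif marked below was picked. The windows are from RefSeq on GRCm38.p6, from 250 bases before to 50 bases after an annotated start, read 5′ to 3′ on the gene's strand. Capitals mark CAGGTG on either strand (CACCTG on the opposite one), an E-box form that repressors of the Snail and Zeb families can bind. The windows are chr5:134946885-134947184 for Cldn4 on the minus strand, chr17:23679115-23679414 for Cldn6 on the plus strand, chr5:134985964-134986263 for Cldn3 on the plus strand and chr11:69965171-69965470 for Cldn7 on the plus strand, the second of 2 windows listed for that gene.
Cldn4: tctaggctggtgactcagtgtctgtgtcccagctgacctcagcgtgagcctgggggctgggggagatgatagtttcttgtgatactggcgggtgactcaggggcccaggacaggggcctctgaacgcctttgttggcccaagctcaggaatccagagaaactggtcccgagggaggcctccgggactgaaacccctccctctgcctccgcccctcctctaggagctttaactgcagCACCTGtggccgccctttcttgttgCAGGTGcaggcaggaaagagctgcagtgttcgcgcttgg
Cldn6: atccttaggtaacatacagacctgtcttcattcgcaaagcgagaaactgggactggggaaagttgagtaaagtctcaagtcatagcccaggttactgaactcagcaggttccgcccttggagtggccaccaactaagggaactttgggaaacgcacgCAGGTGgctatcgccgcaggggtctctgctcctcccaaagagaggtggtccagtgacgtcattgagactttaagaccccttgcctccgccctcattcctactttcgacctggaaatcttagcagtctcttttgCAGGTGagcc
Cldn3: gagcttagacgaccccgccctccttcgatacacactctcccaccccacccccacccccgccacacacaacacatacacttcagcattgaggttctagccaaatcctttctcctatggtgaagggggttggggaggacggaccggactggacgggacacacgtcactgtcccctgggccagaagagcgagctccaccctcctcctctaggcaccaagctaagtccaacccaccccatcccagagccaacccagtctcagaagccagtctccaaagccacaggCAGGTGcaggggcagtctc
Cldn7: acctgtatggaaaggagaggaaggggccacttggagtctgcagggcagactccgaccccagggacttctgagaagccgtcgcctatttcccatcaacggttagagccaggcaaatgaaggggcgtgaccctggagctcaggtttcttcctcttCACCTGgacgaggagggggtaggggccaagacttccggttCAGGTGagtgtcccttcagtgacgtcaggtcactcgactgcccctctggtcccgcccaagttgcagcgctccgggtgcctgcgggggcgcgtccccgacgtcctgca
In Cldn4 the motif began at positions -14 and 12, in Cldn6 at -93 and 41, in Cldn3 at 32 and in this window of Cldn7 at -97 and -57, counting the start base as 1 and the base before it as -1. It was present in at least 1 window of 7 of the 10 genes, against 22.2% of 16517 genes with a window in the same table. The other 3 genes were Cldn1, Cldn12 and Tjp1. Counted by window, it was in 10 of 16, against 19.8% of 20150 windows, and the first window of Cldn7 had no match. Of the other motifs searched on both strands, GGGCGG, a GC-box form, was in 9 of the 10 genes against 51.1% of all genes. CAGGTA, which differs from CAGGTG in the last base alone, was in 1 of the 10 genes against 12.1%. TATAAA was in 1 against 14.3%, and AACCNGTT, a form bound by Grainyhead-like factors, in none against 2.31%. Windows of 1 gene can overlap, the 10 genes were not drawn at random, and a match is a string of letters and not a bound site. Whether the motif has a part in the differences between the lines was not tested.

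All 10 genes passed the filter of 1 TPM in at least 2 libraries, Cldn6, Marveld2 and Tjp3 only through MECPK, since all 3 were below 1 TPM in both MSH2KO21B libraries. For each of the 10 both MSH2KO21B libraries lay below both MECPK libraries, an arrangement also found for 35.2% of the 11921 genes tested, and 88.9% of the tested genes had no overlap in one direction or the other. The median of the 10 log2 differences, taken on log2(TPM + 1) as MSH2KO21B minus MECPK, was -3.46, and the values ran from -8.64 for Cldn6 to -0.96 for Tjp1. The median over all tested genes was 0.19. That median moved to -0.03 with quantile-normalized values and to -0.01 with libraries scaled by median ratios, and each of the 10 genes was lower in MSH2KO21B under either scaling. In bulk RNA fewer cells that carry a transcript and less of it per cell cannot be told apart.

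**Figure D1:**
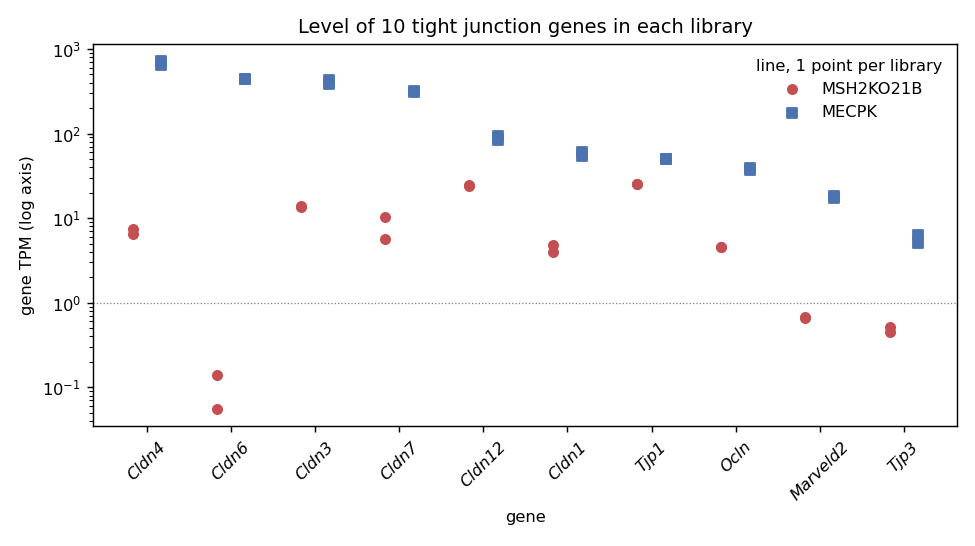
Level of each of the 10 genes in TPM on a log axis, ordered by their mean in MECPK, with 1 point per library (MSH2KO21B as circles, left; MECPK as squares, right) and a dotted line at 1 TPM. The gap between the lines is widest for Cldn6, at 0.06 and 0.14 TPM in MSH2KO21B and 438 and 437 TPM in MECPK, and narrowest for Tjp1, at 25.2 and 25.6 TPM in MSH2KO21B and 49.8 and 50.5 TPM in MECPK.

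Claudin-3 and claudin-4, known as receptors of the Clostridium perfringens enterotoxin, are neighbours on chromosome 5. Cldn4 (ENSMUSG00000047501.3, chromosome 5, 134945119 to 134946934, minus strand) had 7.42 and 6.42 TPM in MSH2KO21B and 713 and 637 TPM in MECPK, means of 6.92 ± 0.70 and 675 ± 53.5 TPM (SD, n = 2 each), a log2 difference of -6.42. Cldn3 (ENSMUSG00000070473.4, chromosome 5, 134986214 to 134987472, plus strand) had 14.1 and 13.7 TPM in MSH2KO21B and 432 and 384 TPM in MECPK, a log2 difference of -4.78. Both lines had both genes above 1 TPM, and in MECPK Cldn4 stood at ranks 225 and 250 of all genes, the highest of the 10, against ranks 8696 and 9018 in MSH2KO21B. The order of the pair was turned: Cldn3 was above Cldn4 in both MSH2KO21B libraries and below it in both MECPK libraries. The 2 genes lie 39279 bases apart.

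Claudin-6, a claudin of embryonic epithelia that is silent in most adult tissues, differed most. Cldn6 (ENSMUSG00000023906.3, chromosome 17, 23679249 to 23682446, plus strand) had 0.06 and 0.14 TPM in MSH2KO21B and 438 and 437 TPM in MECPK, means of 0.10 ± 0.06 and 437 ± 0.87 TPM (SD, n = 2 each). It was the second most abundant claudin in MECPK, where its replicates nearly coincided, and near 0 in both MSH2KO21B libraries. Its log2 difference was -8.64 with a pseudocount of 1 and -11.1 with a pseudocount of 0.1, because its MSH2KO21B values lie below either pseudocount or close to it. Cldn9, which lies only 137 bases from it, was listed at 0 in both MSH2KO21B libraries and had 0.10 and 0.18 TPM in MECPK.

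Claudin-7, which also sits on the lateral membrane and binds the adhesion protein Epcam, had 5.69 and 10.3 TPM in MSH2KO21B and 315 and 312 TPM in MECPK (ENSMUSG00000018569.12, chromosome 11, 69964779 to 69967885, plus strand), a log2 difference of -5.18. On the log2(TPM + 1) scale the MSH2KO21B replicates differed more here than for the other 9 genes, and the gene sum includes 2 shorter transcript models. Transcripts Cldn7-201 and Cldn7-204, which carry the whole coding sequence of 633 bases, had 5.69 and 4.15 TPM in MSH2KO21B and 156 and 154 TPM in MECPK, a log2 difference of -4.73. The model Cldn7-202, whose annotated coding part of 250 bases is not a whole number of codons, had 0 and 3.38 TPM in MSH2KO21B and 112 and 127 TPM in MECPK. Cldn7-203, with 384 coding bases, had 0 and 2.81 TPM in MSH2KO21B and 46.9 and 31.7 TPM in MECPK. The split of the gene among these overlapping models is an estimate, and both the sum and the whole-length value were lower in both MSH2KO21B libraries.

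Claudin-1, needed for the water barrier of mouse epidermis, had 4.01 and 4.85 TPM in MSH2KO21B and 53.6 and 60.6 TPM in MECPK (ENSMUSG00000022512.3, chromosome 16, 26356642 to 26371841, minus strand; log2 difference -3.42). It was thus also lower in the line with the higher stratified markers. Cldn12 (ENSMUSG00000046798.14, chromosome 5, 5489537 to 5514958, minus strand), a claudin that lacks the usual C-terminal binding motif for scaffold proteins, had 24.6 and 23.9 TPM in MSH2KO21B and 84.9 and 94.6 TPM in MECPK, a log2 difference of -1.84. This was the smallest difference of the 6 claudins, and Cldn12 was the highest claudin in both MSH2KO21B libraries but only the fifth in MECPK.

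Across all 33 genes of the claudin family in the table the summed level was 59.5 ± 2.52 TPM in MSH2KO21B and 1990 ± 77.6 TPM in MECPK (SD, n = 2 each), a ratio of means of 33.5 in favour of MECPK. At 1 TPM or more, 5 claudins were present in each MSH2KO21B library and 7 in each MECPK library. The make-up differed along with the total. Cldn12 held 42.7% and 39.0% of the claudin TPM in the MSH2KO21B libraries and 4.15% and 4.89% in the MECPK libraries. Cldn4 held 12.9% and 10.5% in MSH2KO21B and 34.9% and 32.9% in MECPK, and Cldn6 held 0.10% and 0.23% in MSH2KO21B and 21.4% and 22.6% in MECPK. Cldn3 kept a more even place, with 24.4% and 22.3% in MSH2KO21B and 21.1% and 19.8% in MECPK. Outside the 6 claudins described, Cldn23 alone reached 1 TPM in any library. It had 0.46 and 0.65 TPM in MSH2KO21B and 8.41 and 7.92 TPM in MECPK and was lower in MSH2KO21B (log2 difference -2.56 ± 0.10 SE, limma adjusted p = 5.2e-05). The remaining 26 stayed at or below 0.53 TPM, and 16 of the 33 were listed at 0 in every library.

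**Figure D2:**
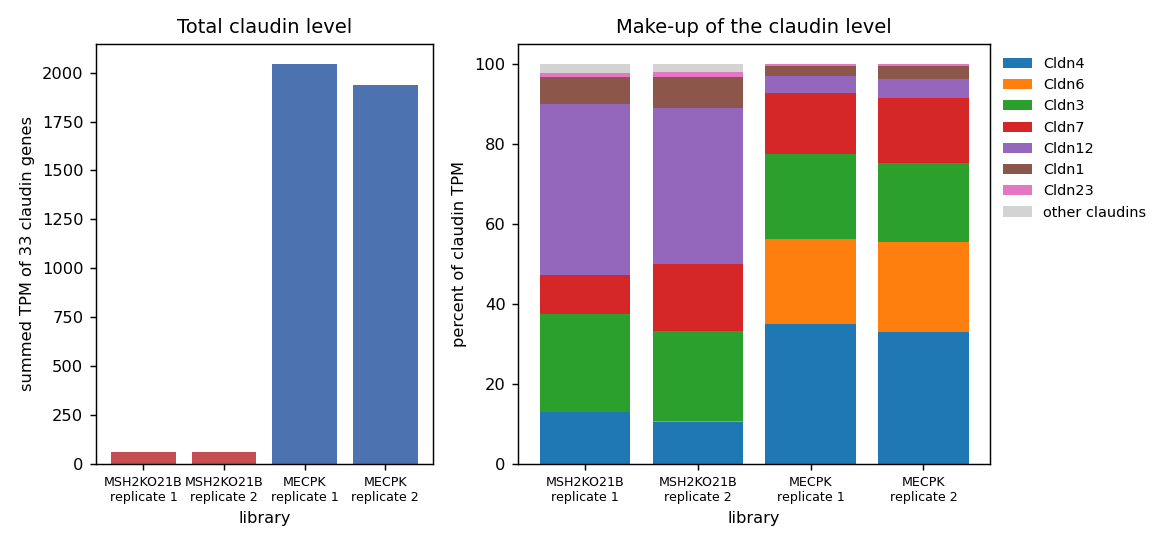
Summed TPM of the 33 claudin genes in each library (left) and the percentage of that sum held by each claudin that reached 1 TPM (right), with MSH2KO21B left of MECPK. The totals are 57.7 and 61.2 TPM in MSH2KO21B and 2045 and 1935 TPM in MECPK, and Cldn12 is the largest part in MSH2KO21B where Cldn4 is in MECPK.

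Occludin, the first tetraspan protein found in these strands, and tricellulin are encoded 43238 bases apart on chromosome 13. Ocln (ENSMUSG00000021638.12, chromosome 13, 100496507 to 100552718, minus strand) had 4.61 and 4.57 TPM in MSH2KO21B and 37.3 and 39.3 TPM in MECPK, means of 4.59 ± 0.03 and 38.3 ± 1.38 TPM (SD, n = 2 each), a log2 difference of -2.82. Marveld2 (ENSMUSG00000021636.15, chromosome 13, 100595957 to 100616971, minus strand) had 0.66 and 0.68 TPM in MSH2KO21B and 18.1 and 17.4 TPM in MECPK, a log2 difference of -3.49 (-4.54 with a pseudocount of 0.1). Ocln was the higher of the pair in all 4 libraries, and their summed level was 5.27 and 5.25 TPM in MSH2KO21B and 55.4 and 56.7 TPM in MECPK. The Ocln transcripts with the whole coding sequence of 1563 bases held 67.0% and 67.9% of the gene in MSH2KO21B and 72.8% and 75.03% in MECPK. The rest was placed on Ocln-203, whose annotated coding sequence of 816 bases lies within the longer one. For Marveld2 a shorter form, Marveld2-202, held 12.4% and 15.8% in MSH2KO21B and 19.8% and 15.3% in MECPK, so its share overlapped between the lines.

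Among the scaffolds the 2 listed genes differed in level and in the size of the gap. Tjp1 (ENSMUSG00000030516.14, chromosome 7, 65296165 to 65527781, minus strand), which encodes the widely expressed scaffold ZO-1, had 25.2 and 25.6 TPM in MSH2KO21B and 49.8 and 50.5 TPM in MECPK, means of 25.4 ± 0.34 and 50.2 ± 0.53 TPM (SD, n = 2 each), a log2 difference of -0.96. Tjp1 was the highest of the 10 genes in MSH2KO21B and only the seventh in MECPK. Tjp3 (ENSMUSG00000034917.8, chromosome 10, 81273207 to 81291581, minus strand), which encodes ZO-3, a scaffold found mainly in epithelia, had 0.45 and 0.52 TPM in MSH2KO21B and 6.38 and 5.11 TPM in MECPK, a log2 difference of -2.18 (-3.31 with a pseudocount of 0.1). It was the lowest of the 10 in MECPK and one of those under 1 TPM in MSH2KO21B.

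ZO-1 is known in forms with and without an alternatively spliced segment, the alpha domain, and the table separates 2 long Tjp1 transcripts. Tjp1-202 has a coding sequence of 5235 bases and Tjp1-201 one of 5055 bases. The first holds an exon of 240 bases, or 80 codons, that the second lacks (exon 20 of 28, chr7:65314093-65314332 on the minus strand of GRCm38), and they also differ in the length of a later exon. The exon is shown in capitals between the 15 bases on each side in the transcript, because it separates the forms whose shares differed between the lines.
Tjp1-202: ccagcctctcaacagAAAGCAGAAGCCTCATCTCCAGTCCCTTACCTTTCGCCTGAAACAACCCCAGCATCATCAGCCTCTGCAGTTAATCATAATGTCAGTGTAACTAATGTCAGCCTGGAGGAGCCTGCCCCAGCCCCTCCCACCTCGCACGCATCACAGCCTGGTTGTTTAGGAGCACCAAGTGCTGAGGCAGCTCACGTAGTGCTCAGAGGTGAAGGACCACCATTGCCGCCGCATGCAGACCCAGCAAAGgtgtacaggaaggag
Tjp1-202 had 3.11 and 3.67 TPM in MSH2KO21B and 16.2 and 15.6 TPM in MECPK, which was 12.3% and 14.3% of the gene in MSH2KO21B and 32.6% and 30.8% in MECPK. Tjp1-201 had 21.9 and 21.9 TPM in MSH2KO21B and 33.4 and 34.8 TPM in MECPK. The form with the exon was the minor one in all 4 libraries, and its share was lower in both MSH2KO21B libraries than in either MECPK library. With 2 libraries against 2 an exact permutation test cannot go below p = 0.333, two-sided, so no test was made of the share. Taken alone, Tjp1-202 had a log2 difference of -1.95, against -0.96 for the gene.

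**Figure D3:**
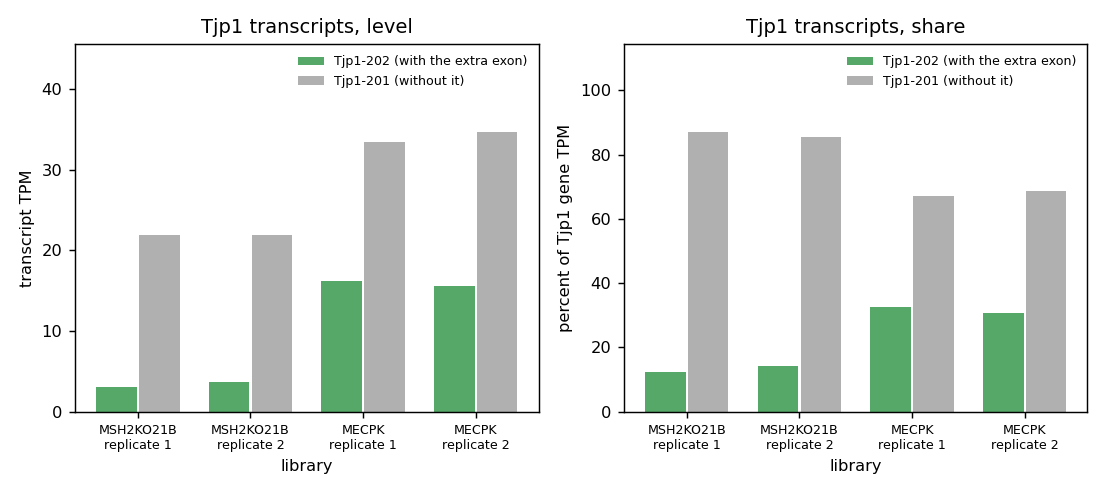
TPM of the Tjp1 transcripts with and without the exon of 240 bases in each library (left) and their percentage of the gene (right), MSH2KO21B left of MECPK. The transcript with the exon holds 12.3% and 14.3% of Tjp1 in MSH2KO21B and 32.6% and 30.8% in MECPK.

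The order of the 10 genes by level was therefore not the same in the lines. In MSH2KO21B Tjp1 and Cldn12 were highest, then Cldn3, while Cldn7 and Cldn4 did not separate beyond their spread, nor did Ocln and Cldn1, and Marveld2, Tjp3 and Cldn6 followed. In MECPK the order was Cldn4, Cldn6, Cldn3, Cldn7, Cldn12, Cldn1, Tjp1, Ocln, Marveld2 and Tjp3, where Cldn6 exceeded Cldn3 by less than the gap between the Cldn3 replicates. By Euclidean distance of log2(TPM + 1) over the 4 libraries, the protein-coding genes nearest to Cldn4, the highest of the 10 in MECPK, were Krt19 (distance 0.17), Krt7 (1.33) and Gdf15 (1.64). Krt19, a keratin of simple epithelium, had 7.69 and 6.90 TPM in MSH2KO21B and 657 and 668 TPM in MECPK. Those nearest to Tjp1, the highest in MSH2KO21B, were Etv4 (0.07), Rab28 (0.09) and Wbp1l (0.105). These distances rest on 4 libraries of 2 lines and describe likeness of level only.

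Genes around the 10 were read to place them in the genome. Within 60 kb of them lie 46 other genes of the table, a set taken by position after the values were seen. As deposited, 13 of the 33 tested were higher and 11 lower in MSH2KO21B and 9 were not called, with a median log2 difference of -0.14, and none was lower by over 2 on the log2 scale. Over all 11921 tested genes 76.2% were called by limma at an adjusted p under 0.05, 46.6% higher and 29.7% lower. Mettl27, which lies 2481 bases from Cldn4, had 8.68 and 11.5 TPM in MSH2KO21B and 6.08 and 5.99 TPM in MECPK (adjusted p = 0.012, and 0.11 with quantile-normalized values). Beside Cldn7, the nearest gene Elp5 was higher in MSH2KO21B, at 58.7 and 66.4 TPM against 36.5 and 29.3 TPM in MECPK (log2 difference 0.91 ± 0.13 SE, adjusted p = 0.0026). The most negative neighbour was Hcfc1r1 near Cldn6, at 22.2 and 24.9 TPM in MSH2KO21B and 99.5 and 84.1 TPM in MECPK (log2 difference -1.92 ± 0.11 SE, adjusted p = 1.4e-04).

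The rest of the junction was followed in lists drawn up by family or known role. Of 15 other membrane proteins of cell contacts 12 were tested, 6 lower and 5 higher in MSH2KO21B (3 higher after median-ratio scaling), with a median log2 difference of -0.52. That is 50% lower and 41.7% higher, against 29.7% lower and 46.6% higher of all tested genes. Some of these calls were of genes that passed the filter only through the line where they were higher. Read with their levels known, these were Vangl2, Clmp and Jam3 through MSH2KO21B, and Jam2 and Igsf5 through MECPK. After median-ratio scaling 4565 of all 11899 tested genes were lower and 4370 higher, and with quantile-normalized values 4577 and 4246 of 11921. The lower members included both tested angulins, which bring tricellulin to tricellular contacts. Lsr had 9.42 and 9.88 TPM in MSH2KO21B and 77.2 and 76.5 TPM in MECPK (log2 difference -2.87 ± 0.06 SE, adjusted p = 1.1e-05), and Ildr1, picked with its levels known, had 1.66 and 1.46 TPM in MSH2KO21B and 8.78 and 10.01 TPM in MECPK (adjusted p = 1.1e-04). The apical polarity gene Crb3 (24.9 and 23.4 TPM in MSH2KO21B, 120 and 116 TPM in MECPK) and the adhesion molecule gene Jam2 (0.11 and 0.20 TPM in MSH2KO21B, 5.19 and 5.25 TPM in MECPK) were also lower. Vangl2 of planar cell polarity, with 23.9 and 25.9 TPM in MSH2KO21B and 0.91 and 0.61 TPM in MECPK, was higher, as was the claudin-like Cldnd1, with 144 and 152 TPM in MSH2KO21B and 73.3 and 70.8 TPM in MECPK. F11r, which encodes the junctional adhesion molecule JAM-A, was slightly higher (116.5 and 115.8 TPM in MSH2KO21B, 94.5 and 87.4 TPM in MECPK, adjusted p = 0.0043), a call lost after median-ratio scaling (adjusted p = 0.104).

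**Figure D4:**
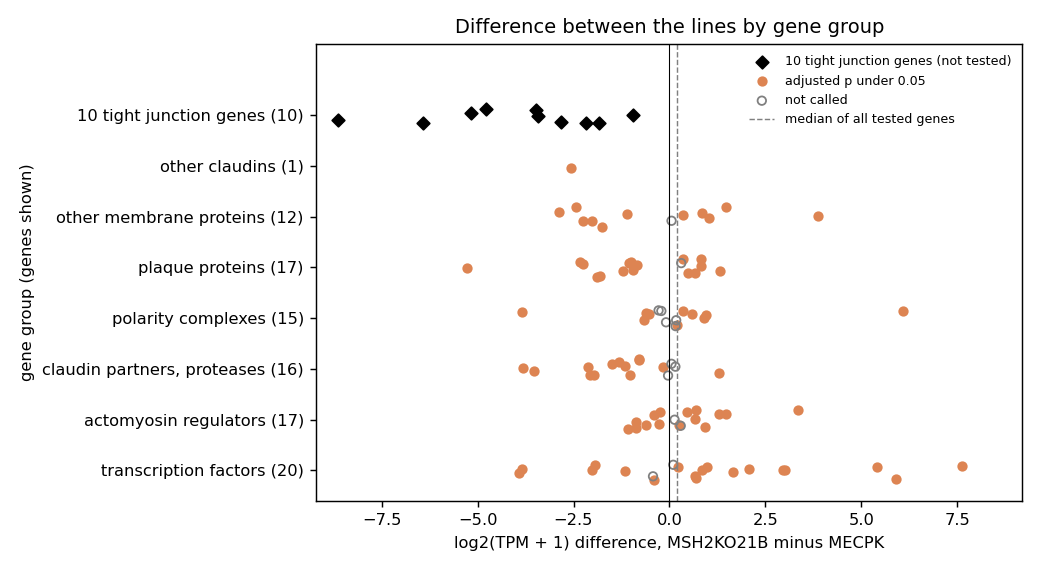
Difference in log2(TPM + 1), MSH2KO21B minus MECPK, of each gene in 8 groups, the number shown in brackets, with black diamonds for the 10 described genes, filled circles for genes called by limma (adjusted p under 0.05), open circles for genes not called and a dashed line at the median of all tested genes, 0.19. The 10 described genes lie between -8.64 and -0.96, and the lists other than the single other claudin hold genes on both sides of 0.

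On the cytoplasmic side, 10 of 17 tested plaque genes were lower in MSH2KO21B and 6 higher, or 10 and 5 with median-ratio scaling, with a median log2 difference of -0.95. That is 58.8% lower and 35.3% higher, against 29.7% and 46.6% of all tested genes. The largest was Cgnl1, which encodes paracingulin, an adaptor between junctions and regulators of small GTPases, at 0.03 and 0.08 TPM in MSH2KO21B and 40.7 and 39.4 TPM in MECPK (log2 difference -5.29 ± 0.08 SE, adjusted p = 6.1e-06). Its relative Cgn, cingulin, had 2.91 and 3.16 TPM in MSH2KO21B and 20.0 and 18.8 TPM in MECPK. Thus Cgnl1 was near 0 in MSH2KO21B, whereas Cgn remained above 1 TPM. Higher members were Amotl2 of the angiomotin family (235.5 and 227.7 TPM in MSH2KO21B, 93.3 and 91.55 TPM in MECPK), Tjap1 (52.8 and 52.0 TPM in MSH2KO21B, 28.2 and 30.6 TPM in MECPK) and the vesicle traffic GTPase gene Rab13 (13.6 and 13.5 TPM in MSH2KO21B, 7.61 and 6.92 TPM in MECPK).

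Polarity complex genes, which place the junction between the apical and lateral membrane, were mixed. Of 15 tested, 6 were higher and 4 lower in MSH2KO21B as deposited, but with quantile-normalized values 3 were higher and 7 lower, and median-ratio scaling gave 4 and 7. As deposited 40.0% were higher and 26.7% lower, against 46.6% and 29.7% of all tested genes. Over all tested genes 5550 were higher and 3538 lower as deposited, 4246 and 4577 with quantile-normalized values and 4370 and 4565 with median-ratio scaling. Fewer polarity genes were called with either MSH2KO21B replicate left out, as over all genes. Only 13 of them could then be tested, since a gene near 0 in MECPK, such as Pard6g, then fails the filter. Of the paralogues of the adaptor PAR6, Pard6g and Pard6b stood at opposite ends. Pard6a, picked with its levels known, was not called (log2 difference -0.28, adjusted p = 0.13). Pard6g had 74.6 and 71.4 TPM in MSH2KO21B and 0.07 and 0.09 TPM in MECPK (log2 difference 6.10 ± 0.07 SE, adjusted p = 5.1e-06). Pard6b had 4.28 and 4.09 TPM in MSH2KO21B and 71.1 and 76.7 TPM in MECPK (log2 difference -3.85 ± 0.07 SE, adjusted p = 9.4e-06). The PAR6 partner kinase gene Prkci was higher (70.9 and 73.2 TPM in MSH2KO21B, 35.8 and 37.2 TPM in MECPK). Pard3 was lower (15.1 and 14.0 TPM in MSH2KO21B, 23.4 and 23.8 TPM in MECPK). Of the basolateral polarity genes, Llgl1 was higher (26.6 and 26.6 TPM in MSH2KO21B, 17.4 and 17.3 TPM in MECPK) and Dlg1 lower (36.7 and 36.5 TPM in MSH2KO21B, 56.3 and 57.3 TPM in MECPK).

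Claudin partners and membrane proteases were mostly lower in MSH2KO21B, 12 of 16 tested against 1 higher, with a median log2 difference of -1.10. The share that was lower was 75%, against 29.7% of all tested genes. Epcam, which binds claudin-7, had 114 and 110 TPM in MSH2KO21B and 442 and 446 TPM in MECPK (log2 difference -1.98 ± 0.04 SE, adjusted p = 1.3e-05). St14 encodes matriptase, a serine protease that cleaves Epcam, and had 49.3 and 55.5 TPM in MSH2KO21B and 214.8 and 250.5 TPM in MECPK. Prss8, which encodes prostasin, a partner protease, had 1.73 and 1.38 TPM in MSH2KO21B and 26.4 and 30.1 TPM in MECPK. The tetraspanin gene Cd82 had 19.2 and 17.8 TPM in MSH2KO21B and 241.5 and 312 TPM in MECPK.

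Actomyosin regulators at junctions were divided, 8 higher and 7 lower of 17 tested, or 7 and 7 after either scaling, which is 47.1% higher and 41.2% lower as deposited, against 46.6% and 29.7% of all tested genes. Tiam1, an activator of Rac, had 27.3 and 33.4 TPM in MSH2KO21B and 1.57 and 2.70 TPM in MECPK and had the largest increase among those at 5 TPM or more in the higher line. Arhgef11, a guanine nucleotide exchange factor, had 10.9 and 10.7 TPM in MSH2KO21B and 3.56 and 4.04 TPM in MECPK. The nonmuscle myosin heavy chains went apart. Myh14 had 29.5 and 27.1 TPM in MSH2KO21B and 11.2 and 8.19 TPM in MECPK, while Myh9 had 105.3 and 105.2 TPM in MSH2KO21B and 215.7 and 234.5 TPM in MECPK, each called (adjusted p = 9.7e-04 for Myh14 and 1.2e-04 for Myh9). Arhgef2, which encodes the junction-bound GEF-H1, and Vasp, an actin elongation factor, were lower. Arhgef2 had 15.2 and 15.2 TPM in MSH2KO21B and 27.6 and 29.6 TPM in MECPK, and Vasp had 67.6 and 64.8 TPM in MSH2KO21B and 122.0 and 119.6 TPM in MECPK.

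Of 26 transcription and splicing factors that promote epithelial genes or are known to repress claudins, 20 were tested, 12 of them higher and 6 lower in MSH2KO21B (11 and 7 with quantile-normalized values), or 60% and 30%, against 46.6% and 29.7% of all tested genes. Trp63 of basal epithelium had 213 and 222 TPM in MSH2KO21B and 0.09 and 0.13 TPM in MECPK, and Tfap2c had 51.7 and 53.1 TPM in MSH2KO21B and 0.24 and 0.29 TPM in MECPK. Snai2, which encodes the E-box repressor Slug, had 187 and 195 TPM in MSH2KO21B and 1.81 and 2.63 TPM in MECPK (log2 difference 5.91 ± 0.14 SE, adjusted p = 1.4e-05). None of the other repressors of claudin or epithelial genes in the list described here, picked with their levels known, was called higher in MSH2KO21B. Snai3 had 0.40 and 0.20 TPM in MSH2KO21B and 4.76 and 3.78 TPM in MECPK, and Twist1 had 0.06 and 0.10 TPM in MSH2KO21B and 3.63 and 2.77 TPM in MECPK, both called lower (adjusted p = 2.6e-04 for Snai3 and 2.2e-04 for Twist1). Both passed the filter only through MECPK, as Trp63, Tfap2c and Grhl3 did only through MSH2KO21B. Snai1 had 0.13 and 0.07 TPM in MSH2KO21B and 1.33 and 0.60 TPM in MECPK, and Zeb1 had 0.04 and 0.04 TPM in MSH2KO21B and 0.47 and 0.54 TPM in MECPK, both too low to be tested. Zeb2 had 5.45 and 3.52 TPM in MSH2KO21B and 5.29 and 7.38 TPM in MECPK (adjusted p = 0.155, and 0.0299 and lower in MSH2KO21B with quantile-normalized values). Of the activators, Elf3 had 1.66 and 1.66 TPM in MSH2KO21B and 40.6 and 38.3 TPM in MECPK, lower in MSH2KO21B (log2 difference -3.93 ± 0.07 SE, adjusted p = 9.5e-06). Grhl2, a direct activator of claudin genes in mouse epithelia, differed little, with 21.8 and 22.6 TPM in MSH2KO21B and 19.4 and 18.2 TPM in MECPK (log2 difference 0.23 ± 0.07 SE, adjusted p = 0.031), a call lost under either scaling, where the difference was 0.03 and 0.02. Others of the list that promote epithelial genes, again picked with their levels known, were called higher in MSH2KO21B. Grhl3 had 6.73 and 7.07 TPM in MSH2KO21B and 0 and 0.03 TPM in MECPK (log2 difference 2.96 ± 0.08 SE, adjusted p = 2.1e-05), and Grhl1 had 3.33 and 3.74 TPM in MSH2KO21B and 1.46 and 1.15 TPM in MECPK (log2 difference 0.98). Klf4 had 187.0 and 187.2 TPM in MSH2KO21B and 20.8 and 24.2 TPM in MECPK, and Ovol1 had 26.9 and 26.02 TPM in MSH2KO21B and 6.39 and 4.75 TPM in MECPK. The paired splicing regulators differed from each other in their calls. Esrp1 was higher, with 75.3 and 75.8 TPM in MSH2KO21B and 40.4 and 43.4 TPM in MECPK (adjusted p = 2.6e-04), and Esrp2 was not called, with 20.9 and 20.7 TPM in MSH2KO21B and 19.4 and 19.3 TPM in MECPK (adjusted p = 0.18). Whether any of these factors, or the markers of simple and stratified epithelium given above, has a part in the junction values was not tested.

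**Figure D5:**
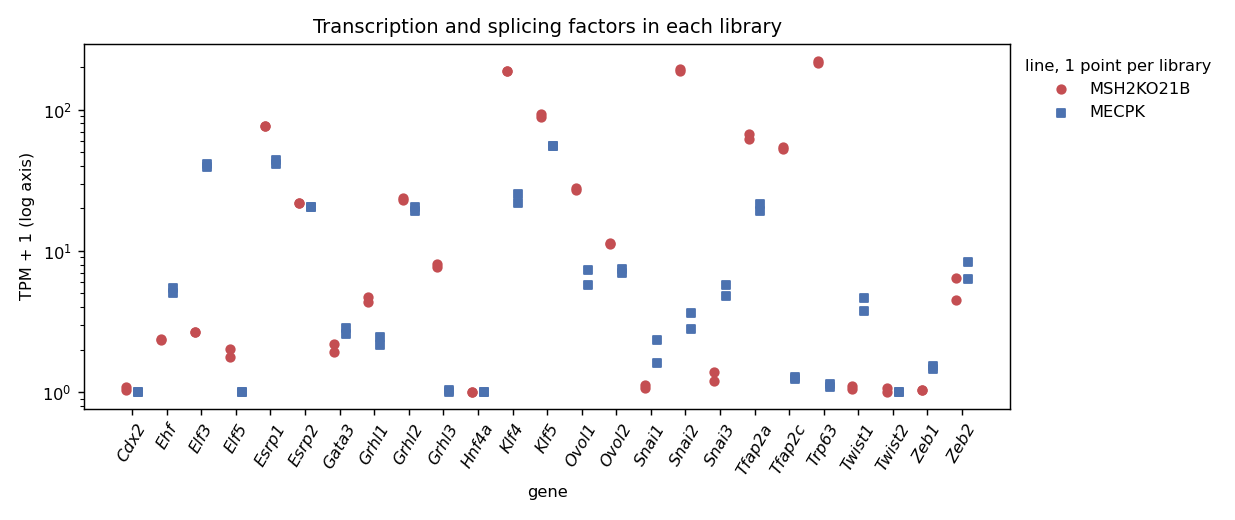
TPM + 1 on a log axis of 25 of the 26 factors of the list in each library, 1 point per library (MSH2KO21B as circles, left; MECPK as squares, right). Trp63, Snai2 and Klf4 are the 3 highest in MSH2KO21B, and Elf3 is among those higher in MECPK.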

How the data were processed

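RNA of 4 libraries was analysed, 2 per line. The submitters' processing notes name kallisto 0.43.1 and the build GRCm38. The authors deposited TPM for 61440 transcripts, each library summing to 1000000, so read depth is unknown and no counting interval was computed. Transcripts with the same annotated coding sequence had equal values (within 1%) in 2410 of 2422 sets, so transcripts that differ only outside it cannot be told apart. Through GENCODE M21 60503 transcripts matched and were summed to 22594 genes. The 11921 genes reaching 1 TPM in 2 or more libraries were fitted with limma 3.58.1 in R 4.3.3, with trend, on log2(TPM + 1), line as the only term, Benjamini-Hochberg adjusted over all genes, threshold 0.05, and the fit was checked on simulated data. Fold changes on this scale understate the change of low genes. In several lists, genes below 1 TPM in 1 line passed the filter only through the other line, where they were higher.

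The 10 genes and 7 lists were chosen with earlier results of these data known. Genes named from a list are up to 3 per direction with the largest called difference and at least 5 TPM in the higher line, every other claudin at 1 TPM, Epcam, and those marked as chosen by position or after their values were seen. Some genes that the rule names are not reported here. Transcripts are named at 10% of the gene and 1 TPM. Alternatives were no trend, quantile and median-ratio scaling, no filter, a pseudocount of 0.1, a minimum of 10 TPM, a replicate block, protein-coding transcripts only and each library left out. Whole coding sequences alone were added after seeing the data. Promoter windows are from RefSeq (GRCm38.p6), and all 10 genes matched by symbol.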

Additional observations from a re-analysis of the deposited data

How the results depend on the processing

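Over all genes 9088 were called, and 6755 to 8270 with 1 library left out, where the lone library is assumed to vary like the other line. The share of calls that were higher in MSH2KO21B was 61.1%, against 48.1% with quantile-normalized values and 48.9% with median-ratio scaling. The other claudins called were 2 without a filter on low values, Cldn23 and Cldn9, and the list had no tested gene with a filter of 10 TPM or without a MECPK replicate. Other membrane genes called were 11, and 5 of 6 tested with a filter of 10 TPM. Polarity genes called were 10 of 15 tested, and fewer with an MSH2KO21B library left out, where 13 were tested. The 10 described genes, chosen with this difference known, were lower in MSH2KO21B in all 123 of their values under alternatives. Of these values 28 moved by more than the replicate SD. Cldn6, Marveld2 and Tjp3 have no value without a MECPK replicate, since they then fail the filter. Of 557 values of 49 named genes with a test 546 kept direction and call. Ehf, Gata3, Pard6a, Myh10, Clmp, Jam3 and Igsf5 were not among these genes. Esrp2, not called in any of them, turned to -0.10 with quantile-normalized values and to -0.11 with median-ratio scaling. The other exceptions were F11r with median-ratio scaling, Mettl27 and Zeb2 with quantile-normalized values, and Grhl2 in 6 alternatives. Deviations of libraries with the same replicate number correlated at 0.02, so the numbers were not taken to pair libraries. With the replicate block 9113 genes were called, and Grhl2 lost its call (adjusted p = 0.0544). Depth limits the values near 0, such as those of Cldn6 in MSH2KO21B, and cannot be read from TPM.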
